A study of Rattus norvegicus with 12 samples.

Results

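The 10 genes described here are Smpd1, Smpd2, Smpd3, Asah1, Sphk1, Sphk2, Sgpl1, S1pr1, S1pr2 and S1pr3, which encode sphingolipid enzymes and receptors for sphingosine 1-phosphate (S1P). They were chosen by their symbols from the 33294 genes of the count table, because the measured count of Smpd3 was much higher after RBFOX2 knockdown than in control. All 10 passed the filter on low counts, which left 18438 genes for testing. Since the difference between RBFOX2 knockdown and control was used for the choice, the genes are only described in that comparison. Smpd3 is tested only between the QKI and RBPMS knockdowns, whose libraries were not in the comparison used for the choice. That test is not fully independent, since earlier results of these data were known and the estimate of spread is shared over all libraries.

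RNA was measured by poly(A)-selected RNA-seq in PAC-1 cells, a rat pulmonary artery smooth muscle line grown in DMEM with fetal bovine serum, in 4 groups of 3 libraries. The groups received the negative control siRNA C2 or 1 that targets RBPMS, RBFOX2 or QKI, genes that encode RNA-binding proteins that regulate splicing. Per the labels, 90 pmol of siRNA was given by reverse transfection and again after 24 h, and cells were taken 48 h after that. The study gives longer times. For its experiment with these 3 knockdowns it names PAC1 cells kept in a differentiated state, and reports them as less differentiated than in its other experiment. The 4 groups share the cell line, the medium and the transfection, and the 3 comparisons with control share the same 3 control libraries. The study's reagent list holds 1 siRNA for each target, so effects of the target and of that siRNA cannot be told apart. The sense strands of the siRNAs define the groups.
C2 (control): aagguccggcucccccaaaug
RBPMS: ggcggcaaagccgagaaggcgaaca
RBFOX2: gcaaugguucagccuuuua
QK (QKI): ggacuuacagcuaaacaac

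Sphingomyelinases release ceramide from the membrane lipid sphingomyelin, ceramidases convert ceramide to sphingosine, and sphingosine kinases phosphorylate sphingosine to S1P. S1P lyase degrades S1P irreversibly, and exported S1P acts on a family of G protein-coupled receptors. In vascular smooth muscle, S1P receptors are known for effects on contraction, migration and proliferation, while ceramide is known as a signal in growth arrest and in vesicle formation.

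Promoters are shown for the receptors S1pr2 and S1pr3, which were lower than control in all 3 knockdowns, and for the lyase gene Sgpl1, which was higher in all 3. The 150 bases before the annotated start are given on the gene's strand from the RefSeq promoters of the assembly GRCr8, while the counts were made on mRatBN7.2. Capitals mark the GC box GGGCGG, searched on both strands, so that its reverse complement is also in capitals.
S1pr2, chr8:27790345-27790494, minus strand: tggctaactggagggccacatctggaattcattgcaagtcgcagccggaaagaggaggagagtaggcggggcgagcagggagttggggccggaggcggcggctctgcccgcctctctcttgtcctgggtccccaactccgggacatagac
S1pr3, chr17:13946014-13946163, minus strand: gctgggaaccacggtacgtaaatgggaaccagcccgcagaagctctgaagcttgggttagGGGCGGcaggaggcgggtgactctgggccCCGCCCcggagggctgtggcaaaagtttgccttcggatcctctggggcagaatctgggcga
Sgpl1, chr20:29636879-29637028, minus strand: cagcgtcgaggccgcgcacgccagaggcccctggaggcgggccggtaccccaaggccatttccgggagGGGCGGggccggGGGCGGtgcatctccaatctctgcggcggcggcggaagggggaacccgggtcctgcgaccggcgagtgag
The S1pr3 and Sgpl1 windows each held 2 matches to GGGCGG, and the S1pr2 window held none. Over the 250 bases before the start, S1pr3 had 3 matches, the third of them 180 bases before the start, and S1pr2 had 1 match, 212 bases before the start. Promoters were found for 8 of the 10 members, not for Smpd3 and Asah1. GGGCGG also occurred before Smpd1, Smpd2 and 1 of the 3 starts of Sphk1, and in 30.47% of all 33469 RefSeq promoters, so its presence is a common feature. The CArG box, the motif of serum response factor (1.497% of all promoters), and the E-box CACGTG (5.593%) were found before none of the 8. CATTCC, the motif of TEAD factors (12.06%), was found once, before 1 of the starts of Sphk1. A match describes the letters only, and no match is no statement on a factor.

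The knockdowns were visible in their targets. Rbpms fell from 40.7 ± 2.60 CPM (CPM, here a count relative to its library's total after TMM adjustment, as mean ± SD, n = 3) in control to 7.21 ± 0.301 CPM, Rbfox2 from 154 ± 4.37 to 37.3 ± 0.943 CPM and Qk from 233 ± 7.04 to 26.6 ± 0.649 CPM in the respective knockdown. Rbpms was also lower in RBFOX2 knockdown, at 23.1 ± 1.90 CPM, and in QKI knockdown, at 29.0 ± 0.957 CPM, while the level of Qk was 174 ± 1.32 CPM after RBFOX2 siRNA, below control. Library totals ranged from 110.6 to 151.7 M counts. This is more than the depth the study describes. Since 68.1% of the counts from 1 to 19 were even, a count may not stand for 1 fragment, and counts per library may be about 2 times the fragments. The summed level of 8 smooth muscle markers, all above 1 CPM in every group, was 2110 to 2175 CPM in control, 1069 to 1176 CPM in RBPMS knockdown, 827 to 925 CPM in RBFOX2 knockdown and 1441 to 1526 CPM in QKI knockdown. The sum was mostly Acta2, Tagln and Myl9, and the markers did not move together. By mean, Acta2, Cnn1, Myl9 and Mylk were below control in every knockdown, while Myh11 and Myocd were above it in every knockdown. Tagln was below control in RBPMS and RBFOX2 knockdown only, and Smtn was above control in RBFOX2 knockdown only. The 6 endothelial markers summed to 8.75 to 10.8 CPM in control and 8.90 to 9.18 CPM in RBPMS knockdown. Their sum was 5.22 to 5.81 CPM in RBFOX2 knockdown and 6.53 to 6.86 CPM in QKI knockdown. Cdh5 had the highest mean of them in every group, 6.77 CPM in control, where Tek had 1.32 and Vwf 1.39 CPM. Pecam1 had 9 to 49 counts per library, and Kdr and Tie1 had 0 to 12. The 5 leukocyte markers summed to 1.48 to 1.57 CPM in control and 2.01 to 2.46 CPM in RBPMS knockdown. Their sum was 1.69 to 2.34 CPM after RBFOX2 siRNA and 5.43 to 5.98 CPM in QKI knockdown. Nearly all of it was Csf1r and Cd68. Between control and QKI knockdown, mean Csf1r rose from 0.405 to 3.63 CPM and mean Cd68 from 1.04 to 1.98 CPM. The pan-leukocyte gene Ptprc had 0 to 4 counts per library, and Adgre1 and Itgam had 0 to 12. The 5 epithelial markers summed to 29.5 to 31.7 CPM in control, 36.3 to 44.2 CPM in RBPMS knockdown, 32.3 to 34.2 CPM in QKI knockdown and, highest, 72.0 to 73.9 CPM in RBFOX2 knockdown, nearly all of it Krt8. The part of these marker differences in the values below was not tested.

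Smpd3, the gene of neutral sphingomyelinase 2, which releases ceramide at the plasma membrane and the Golgi, was the member with the widest spread between groups. Its level was 4.59, 4.42 and 4.79 CPM in the control libraries, 61.5, 51.9 and 53.4 CPM in RBFOX2 knockdown, 22.1, 14.1 and 16.04 CPM in RBPMS knockdown and 6.03, 5.39 and 4.98 CPM in QKI knockdown, in the order of replicates 1 to 3. No library of RBFOX2 knockdown overlapped any other group, the RBPMS knockdown libraries lay between, and the QKI knockdown libraries lay just above control. The counts behind these levels were 562 to 658 per library in control and 7273 to 8512 in RBFOX2 knockdown. The group means differed from control by a log2 fold change of 3.60 (SE 0.13), or 12.1-fold, in RBFOX2 knockdown, the value that chose the gene. They differed by 1.92 (SE 0.13), or 3.78-fold, in RBPMS knockdown and by 0.25 (SE 0.14) in QKI knockdown. Outside the comparison used for the choice, Smpd3 was 3.17-fold lower in QKI than in RBPMS knockdown (log2 fold change -1.66, SE 0.13, edgeR adjusted p = 5.06e-09), with 3 of 3 libraries of each group apart. Replicate 1 was the highest library of the RBPMS knockdown, and without it the difference between QKI and RBPMS knockdown was -1.46. In bulk RNA, fewer cells of a type and less RNA per cell cannot be told apart, here and for every value below.

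**Figure D1:**
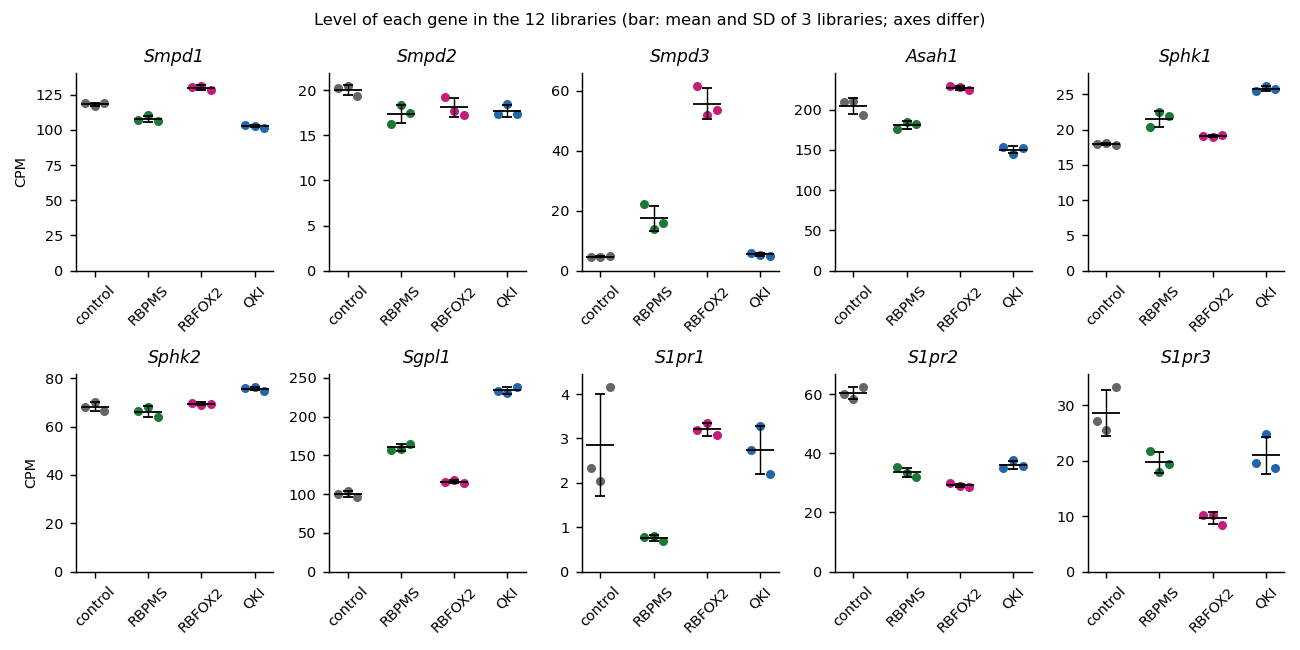
Level of each of the 10 genes in CPM (linear axis from 0, a different range in each panel) in the 12 libraries, with points for libraries and a bar for the mean and SD of 3. Smpd3 is highest in RBFOX2 knockdown, at 51.9 to 61.5 CPM, Sgpl1 in QKI knockdown, at 230 to 238 CPM, and S1pr2 in control, at 58.3 to 62.3 CPM.

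The changes of Smpd1 and Smpd2 were small. Smpd1, the gene of the lysosomal acid sphingomyelinase, had 119, 117 and 119 CPM in control, 107, 110 and 106 CPM in RBPMS knockdown, 103, 102 and 102 CPM in QKI knockdown and 131, 131 and 128 CPM in RBFOX2 knockdown. The 4 groups did not overlap and differed by small steps. It fell by 8.65% in RBPMS knockdown (log2 fold change -0.13, SE 0.030, edgeR adjusted p = 0.00117) and by 13.3% in QKI knockdown (log2 fold change -0.21, edgeR adjusted p = 1.03e-05), and differed from control by 0.14 on the log2 scale in RBFOX2 knockdown. Smpd2, the gene of neutral sphingomyelinase 1, ranged from 19.4 to 20.5 CPM in control and from 16.3 to 19.3 CPM over the 9 knockdown libraries. Its knockdown levels did not overlap control, but overlapped each other. It fell by 13.3% in RBPMS knockdown (edgeR adjusted p = 0.00367) and by 11.6% in QKI knockdown (edgeR adjusted p = 0.00837), and differed from control by -0.15 on the log2 scale in RBFOX2 knockdown. The QKI call on Smpd2 was lost when libraries were scaled by their totals alone (log2 fold change -0.09, edgeR adjusted p = 0.140) and in the table normalised by the authors (-0.05, limma adjusted p = 0.504).

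Asah1, the gene of the lysosomal acid ceramidase, was lowest in QKI knockdown. Its level was 209, 211 and 193 CPM in control, 176, 185 and 182 CPM in RBPMS knockdown, 153, 145 and 153 CPM in QKI knockdown and 229, 228 and 224 CPM in RBFOX2 knockdown. The groups did not overlap, and control replicate 3 was the lowest control library. Asah1 fell by 26.4% in QKI knockdown (log2 fold change -0.44, SE 0.038, edgeR adjusted p = 1.31e-08) and by 11.5% in RBPMS knockdown (log2 fold change -0.18, SE 0.038, edgeR adjusted p = 6.28e-04). The 2 knockdowns differed from each other by -0.27 on the log2 scale, QKI lower (edgeR adjusted p = 9.84e-06). In RBFOX2 knockdown it stood 0.15 above control on the log2 scale, and 0.59 above QKI knockdown (edgeR adjusted p = 2.67e-10). Asah1 and Smpd1 thus had the same order of groups, RBFOX2 knockdown highest, then control, RBPMS knockdown and QKI knockdown, although the step from RBPMS to QKI knockdown in Smpd1, -0.08 (edgeR adjusted p = 0.0393), lost its call in every one of 8 alternative settings.

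Both sphingosine kinase genes, whose products make S1P, were highest in QKI knockdown. Sphk1 had 17.96, 18.14 and 17.86 CPM in control, 20.3, 22.5 and 21.9 CPM in RBPMS knockdown, 25.4, 26.2 and 25.8 CPM in QKI knockdown and 19.1, 18.9 and 19.2 CPM in RBFOX2 knockdown. All 9 knockdown libraries lay above control, and the QKI libraries lay above all others. Sphk1 rose by 43.4% in QKI knockdown (log2 fold change 0.52, SE 0.043, edgeR adjusted p = 9.30e-09) and by 19.9% in RBPMS knockdown (log2 fold change 0.26, SE 0.044, edgeR adjusted p = 5.74e-05). QKI knockdown was higher than RBPMS knockdown by 0.26 on the log2 scale (edgeR adjusted p = 5.72e-05), while RBFOX2 knockdown differed from control by 0.08. Sphk1 overlaps the long noncoding RNA Khps1a in the RefSeq gene table, and whether counting used strand is not given in the sources used here, so its counts may include that RNA. Sphk2, the kinase that is also found in the nucleus and mitochondria, was between 66.6 and 70.2 CPM in control, 63.9 and 68.1 CPM after RBPMS knockdown and, after RBFOX2 knockdown, 68.9 and 69.9 CPM, all overlapping control. It rose by 10.9% in QKI knockdown, to between 74.9 and 76.3 CPM (log2 fold change 0.15, SE 0.034, edgeR adjusted p = 9.76e-04). In RBPMS knockdown the log2 fold change was -0.04 with a 95% interval from -0.12 to 0.03 (edgeR adjusted p = 0.288).

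Sgpl1, the gene of S1P lyase, rose most in QKI knockdown. Its level was 99.96, 103.9 and 95.86 CPM in control, 157, 158 and 165 CPM in RBPMS knockdown, 233, 230 and 238 CPM in QKI knockdown and 116, 118 and 115 CPM in RBFOX2 knockdown. The 4 groups formed separate steps, each wider than the spread of its libraries. Sgpl1 rose 2.34-fold in QKI knockdown (log2 fold change 1.23, SE 0.035, edgeR adjusted p = 6.94e-15) and 1.60-fold in RBPMS knockdown (log2 fold change 0.68, SE 0.035, edgeR adjusted p = 3.95e-11). The step between the RBPMS and QKI knockdowns was 0.54 on the log2 scale (SE 0.035, edgeR adjusted p = 4.54e-10). RBFOX2 knockdown stood 0.22 above control, and was lower than QKI knockdown by 1.01 (edgeR adjusted p = 8.59e-14) and lower than RBPMS knockdown by 0.46 on the log2 scale (edgeR adjusted p = 7.62e-09). Leaving out any single library moved the QKI value only between 1.19 and 1.25.

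S1pr2, a receptor known to inhibit cell migration, was lower in every knockdown. Its level was 60.1, 58.3 and 62.3 CPM in control, 35.2, 33.4 and 32.1 CPM in RBPMS knockdown, 34.9, 37.7 and 35.6 CPM in QKI knockdown and 29.9, 28.9 and 28.7 CPM in RBFOX2 knockdown. No knockdown library came near control, and the RBPMS and QKI libraries overlapped. S1pr2 fell by 44.3% in RBPMS knockdown (log2 fold change -0.84, SE 0.044, edgeR adjusted p = 4.17e-11) and fell by 40.1% in QKI knockdown (log2 fold change -0.74, SE 0.044, edgeR adjusted p = 8.93e-11). In RBFOX2 knockdown the log2 fold change stood at -1.05 (SE 0.044). RBFOX2 knockdown was lower than RBPMS knockdown by 0.20 (edgeR adjusted p = 8.70e-04) (with library totals alone the edgeR adjusted p was 0.0525) and lower than QKI knockdown by 0.31 on the log2 scale (edgeR adjusted p = 8.70e-06). The difference between QKI and RBPMS knockdown, 0.10 with a 95% interval from 0.01 to 0.20, had an edgeR adjusted p of 0.0520.

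S1pr3, a receptor linked to calcium release and contraction in smooth muscle, was lowest in RBFOX2 knockdown. Its level was 27.1, 25.5 and 33.3 CPM in control, 21.8, 18.05 and 19.4 CPM in RBPMS knockdown, 19.5, 24.8 and 18.7 CPM in QKI knockdown and 10.3, 10.2 and 8.49 CPM in RBFOX2 knockdown. Control replicate 3 was the highest library, the RBPMS and QKI knockdowns overlapped below control, and RBFOX2 knockdown lay apart. S1pr3 fell by 31.1% in RBPMS knockdown (log2 fold change -0.54, SE 0.11, edgeR adjusted p = 4.19e-04) and fell by 26.8% in QKI knockdown (log2 fold change -0.45, SE 0.11, edgeR adjusted p = 0.00154). In RBFOX2 knockdown it differed from control by -1.57 on the log2 scale (SE 0.11), or 2.96-fold lower than control. RBFOX2 knockdown was also lower than RBPMS knockdown by 1.03 (SE 0.11, edgeR adjusted p = 7.98e-07) and lower than QKI knockdown by 1.12 on the log2 scale (SE 0.11, edgeR adjusted p = 1.36e-07). Without control replicate 3 the RBPMS value was -0.42 and the QKI value -0.33, both still past an adjusted p of 0.05, but the QKI call was lost in the table normalised by the authors (-0.33, limma adjusted p = 0.0678).

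S1pr1, the receptor known for endothelial barrier function and lymphocyte exit, had few counts and a different order of groups. Its level was 2.34, 2.04 and 4.16 CPM in control, 0.790, 0.798 and 0.692 CPM in RBPMS knockdown, 2.74, 3.27 and 2.21 CPM in QKI knockdown and 3.18, 3.36 and 3.07 CPM in RBFOX2 knockdown, from 76 to 566 counts per library. Only the RBPMS knockdown libraries stood apart, below all others, and control replicate 3 was the highest of the 12. S1pr1 fell by 73.2% in RBPMS knockdown (log2 fold change -1.90, SE 0.23, edgeR adjusted p = 1.59e-06), and by 1.52 on the log2 scale without control replicate 3. It was 3.59-fold higher in QKI than in RBPMS knockdown (log2 fold change 1.84, SE 0.23, edgeR adjusted p = 2.25e-06) and 4.21-fold higher in RBFOX2 than in RBPMS knockdown (log2 fold change 2.07, SE 0.23, edgeR adjusted p = 6.83e-07). In QKI knockdown the difference from control was -0.06 with a 95% interval from -0.48 to 0.36 (edgeR adjusted p = 0.815), so its direction is not set, and without control replicate 3 the value was 0.32 (edgeR adjusted p = 0.062). In RBFOX2 knockdown it was 0.17 (SE 0.20), with no set direction, as the value was -0.03 without control replicate 2 and 0.55 without control replicate 3. The endothelial markers, with S1pr1 itself not among them, summed to 8.90 to 9.18 CPM in RBPMS knockdown and 8.75 to 10.8 CPM in control. They moved in both directions. By mean, Cdh5 was lower in RBPMS knockdown than in control (5.59 against 6.77 CPM), as was Vwf, and Tek was higher (2.00 against 1.32 CPM), as were the others. A link between these markers and S1pr1 was not tested.

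**Figure D2:**
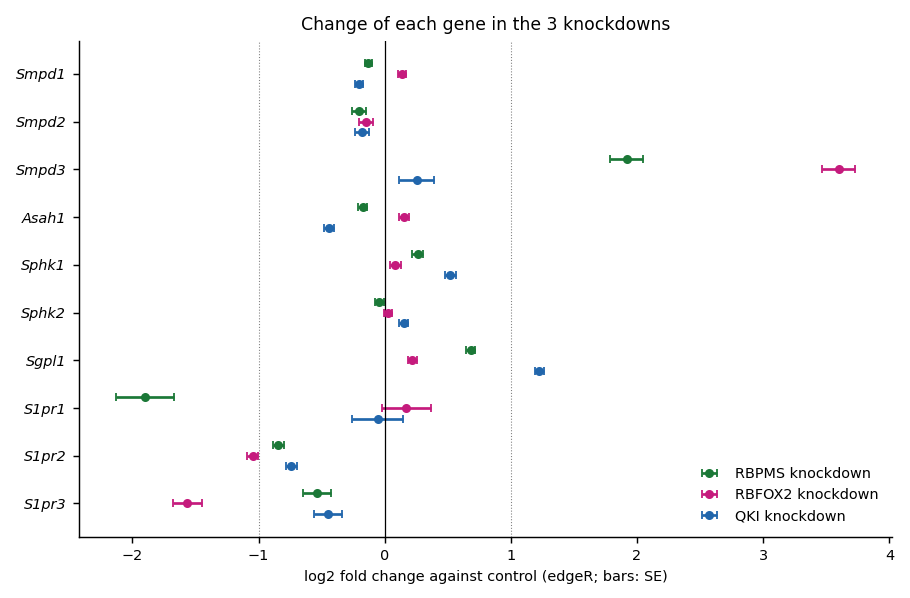
Log2 fold change of each of the 10 genes against control (points, edgeR) with its SE (bars) in the 3 knockdowns, which share the control libraries; dotted lines mark a log2 fold change of 1 in either direction. S1pr2 and S1pr3 lie below 0 in all 3 knockdowns and Sgpl1 above 0, while Smpd3 reaches 3.60 in RBFOX2 knockdown and S1pr1 reaches -1.90 in RBPMS knockdown.

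By number, Smpd3 left out, 2 of 9 members rose and 6 fell in RBPMS knockdown at an edgeR adjusted p under 0.05, where 30.4% of all genes tested rose and 29% fell. In QKI knockdown 3 rose and 5 fell, against 32.9% and 34% of all genes. With the study's additional limit of an absolute log2 fold change above 1, the single member called was S1pr1 in RBPMS knockdown (9.66% of all genes) and Sgpl1 in QKI knockdown (17.5%). The median absolute log2 fold change of the 9 members was 0.26 in RBPMS knockdown, against 0.33 over all genes, and 0.44 in QKI knockdown, against 0.42. In RBFOX2 knockdown, whose comparison chose the list, 3 of 9 passed on the higher and 3 on the lower side (30.1% and 30.1% of all genes), and S1pr2 and S1pr3 passed both limits (11.7%). The counts for RBFOX2 knockdown are given as description only, and nothing is read from them.

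Between knockdowns, 7 of 9 members differed at an edgeR adjusted p under 0.05 between RBFOX2 and RBPMS knockdown (56.7% of all genes), 7 of 9 between RBFOX2 and QKI knockdown (68.5%) and 7 of 10, Smpd3 included, between QKI and RBPMS knockdown (61%). S1pr1 and S1pr3 passed the limit of 1 as well in the first of these, Sgpl1 and S1pr3 in the next, and Smpd3 and S1pr1 in the last. The values of S1pr3, and of Sgpl1 in the comparison of RBFOX2 with QKI knockdown, lay close to that limit. The log2 fold change of S1pr3 between RBFOX2 and RBPMS knockdown was -0.95 without RBFOX2 knockdown replicate 3, and that between RBFOX2 and QKI knockdown was -0.99 without QKI knockdown replicate 2, which left 1 member past both limits in each case. Leaving out RBPMS knockdown replicate 1 also left 1 member in the first comparison. Many genes outside the list passed both limits too. With DESeq2, 1393 of all 18438 genes did so between RBFOX2 and RBPMS knockdown. Between RBFOX2 and QKI knockdown 3378 did, and between QKI and RBPMS knockdown 2243. Nothing particular to the members is read from their counts.

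Close relatives of the members were measured as well. Smpd4, another neutral sphingomyelinase, had 35.8 to 36.5 CPM in control and rose to 53.4 to 55.3 CPM in RBPMS knockdown (log2 fold change 0.59, SE 0.034, edgeR adjusted p = 1.58e-10) and to 75.6 to 77.8 CPM in QKI knockdown (log2 fold change 1.08, SE 0.034, edgeR adjusted p = 2.26e-14), with 49.6 to 52.3 CPM in RBFOX2 knockdown. Like Sgpl1, it was highest in QKI knockdown. Smpd5 was near 1 CPM throughout, and its call in RBPMS knockdown (log2 fold change 0.48, SE 0.17, edgeR adjusted p = 0.0244) rests on 93 to 153 counts per library. Asah2, the neutral ceramidase, had 8 to 41 counts per library and no call against control in RBPMS or QKI knockdown, and its mean was 0.280 CPM in RBFOX2 knockdown against 0.135 CPM in control. Among the receptors, S1pr4 had 0 to 8 counts per library and was not tested. S1pr5 had 0.339 to 1.12 CPM, and fell by 39.8% in QKI knockdown (log2 fold change -0.73, SE 0.29, edgeR adjusted p = 0.0324).

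The wider pathway was taken from a list of 64 other sphingolipid genes in 8 roles, of which 55 were tested. In RBPMS knockdown 20 rose and 20 fell at an edgeR adjusted p under 0.05, and 3 of them passed the limit of 1 as well, against 30.4%, 29% and 9.66% of all genes. In QKI knockdown 17 rose and 28 fell, with 10 past both limits, against 32.9%, 34% and 17.5% of all genes. The counts in RBFOX2 knockdown were 22 higher and 17 lower, 8 of them past both limits, against 30.1%, 30.1% and 11.7%. They too are given as description only. The median log2 fold change over the list was -0.05, -0.11 and 0.07 in RBPMS, QKI and RBFOX2 knockdown, against 0.01 over all genes in each. Among the 12 tested genes of glycosphingolipid breakdown, 7 fell and 3 rose in RBPMS knockdown and likewise 7 and 3 in QKI knockdown. Of 13 tested genes of de novo ceramide synthesis, 5 rose and 3 fell in RBPMS knockdown, and 5 rose and 6 fell in QKI knockdown. Of the 9 tested genes that dephosphorylate, degrade or transport S1P besides the lyase, 4 rose and 1 fell in RBPMS knockdown, and 4 rose and 2 fell in QKI knockdown. These roles hold few genes, and about 30.4% of all genes rose and 29% fell in RBPMS knockdown, and 32.9% and 34% in QKI knockdown, so nothing particular to a role is read from the counts.

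The genes of the list named next had the largest changes past both limits in RBPMS or QKI knockdown among genes averaging 1 CPM or more. Acer2, the Golgi alkaline ceramidase, had 8.16, 7.82 and 8.49 CPM in control, 2.94, 2.72 and 2.18 CPM in RBPMS knockdown, 0.469, 0.339 and 0.403 CPM in QKI knockdown and 3.60, 3.55 and 3.05 CPM in RBFOX2 knockdown. It fell by 67.9% in RBPMS knockdown (log2 fold change -1.64, SE 0.11, edgeR adjusted p = 6.29e-10) and from a mean of 8.16 to 0.404 CPM in QKI knockdown (log2 fold change -4.32, SE 0.13, edgeR adjusted p = 1.72e-14). The ceramide synthase gene Cers4 fell from 43.8 to 49.4 CPM in control to 25.2 to 28.5 CPM in RBPMS knockdown (log2 fold change -0.76, edgeR adjusted p = 1.36e-09) and 11.26 to 11.95 CPM in QKI knockdown (log2 fold change -1.99, edgeR adjusted p = 4.13e-15). A second synthase gene, Cers5, fell in both as well, by 0.65 (edgeR adjusted p = 1.06e-10) and 1.08 on the log2 scale (edgeR adjusted p = 5.61e-14). In RBFOX2 knockdown Cers4 had 38.9 to 39.9 CPM. Cers5 had 157 to 163 CPM there, overlapping its 161 to 164 CPM in control. Cerk, the ceramide kinase, had 163 to 175 CPM in control and 70.6 to 88.7 CPM in all 9 knockdown libraries, and fell from a mean of 167 to 83.7 CPM in RBPMS knockdown (edgeR adjusted p = 8.20e-12) and to 72.8 CPM in QKI knockdown (edgeR adjusted p = 2.60e-13). Samd8, a ceramide phosphoethanolamine synthase, fell by 0.38 (edgeR adjusted p = 2.88e-07) and 1.08 on the log2 scale (edgeR adjusted p = 2.21e-13), and Smpdl3a, an acid sphingomyelinase-like phosphodiesterase, by 0.62 (edgeR adjusted p = 2.01e-04) and 1.24 (edgeR adjusted p = 7.33e-08).

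Ugcg, the glucosylceramide synthase that draws ceramide into glycosphingolipids, moved in opposite directions. Its level was 45.6, 45.3 and 48.2 CPM in control, 159, 135 and 150 CPM in RBPMS knockdown, 22.7, 25.2 and 22.6 CPM in QKI knockdown and 165, 164 and 168 CPM in RBFOX2 knockdown. All libraries of RBPMS and RBFOX2 knockdown lay above control and all of QKI knockdown below it. Ugcg rose 3.19-fold in RBPMS knockdown (log2 fold change 1.67, SE 0.053, edgeR adjusted p = 1.09e-13) and fell by 49.4% in QKI knockdown (log2 fold change -0.98, SE 0.055, edgeR adjusted p = 4.11e-11).

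**Figure D3:**
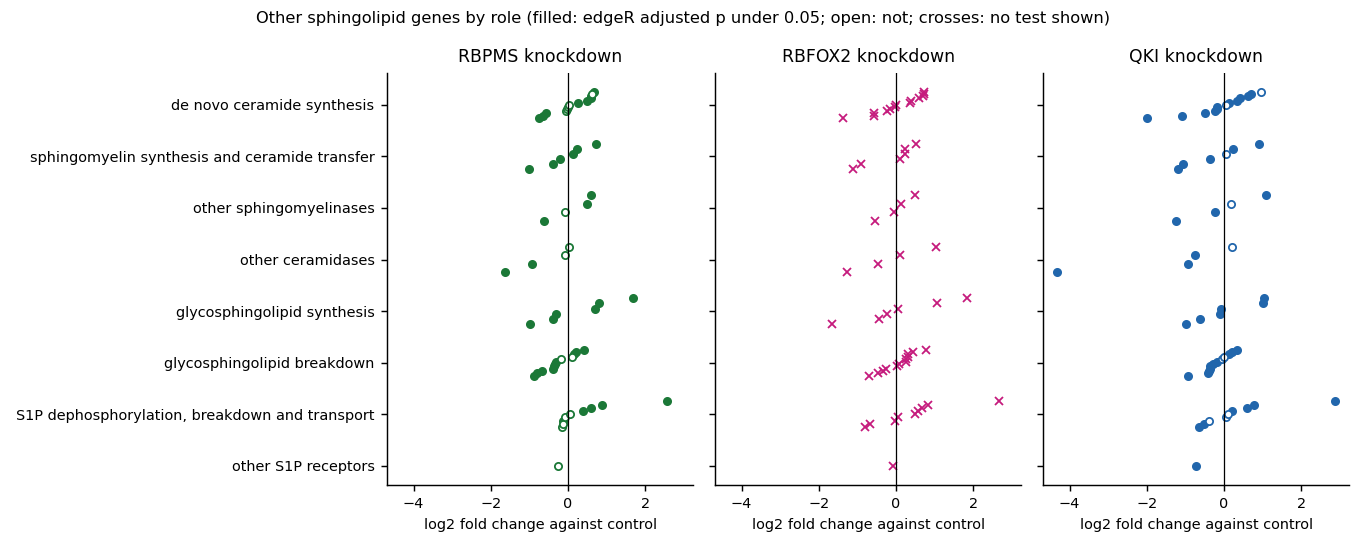
Log2 fold change against control of the tested genes of the pathway list, by role, in the 3 knockdowns (filled points passed an edgeR adjusted p of 0.05, open points did not, and crosses carry no test). Most roles hold genes on both sides of 0, the lowest point is Acer2 in QKI knockdown at -4.32, and the points farthest to the right are Sgpp2, a gene named after its values were seen, whose control mean of 0.0147 CPM is at the limit of detection.

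The genes whose pattern was most like that of Smpd3 were sought by Pearson's r over log2 CPM in the 12 libraries, among 10046 genes averaging 5 CPM or more. They were St3gal1, a sialyltransferase (r = 0.996), Tgoln2, a trans-Golgi network protein (r = 0.995), Enc1, an actin-binding protein (r = 0.990), Amph, the endocytic protein amphiphysin (r = 0.986), and Evc, a protein of the primary cilium (r = 0.984). The libraries fall into 4 groups, so r mainly describes the order of the groups. The changes of these genes were smaller than that of Smpd3. St3gal1 had 58.6 to 59.5 CPM in control, 73.1 to 84.8 CPM in RBPMS knockdown, 104 to 110.0 CPM in RBFOX2 knockdown and 61.7 to 64.1 CPM in QKI knockdown. Amph, with the largest log2 fold change of the 5 in RBFOX2 knockdown (1.10, SE 0.051), had 53.9 to 55.6 CPM there and 23.7 to 27.9 CPM in control.

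**Figure D4:**
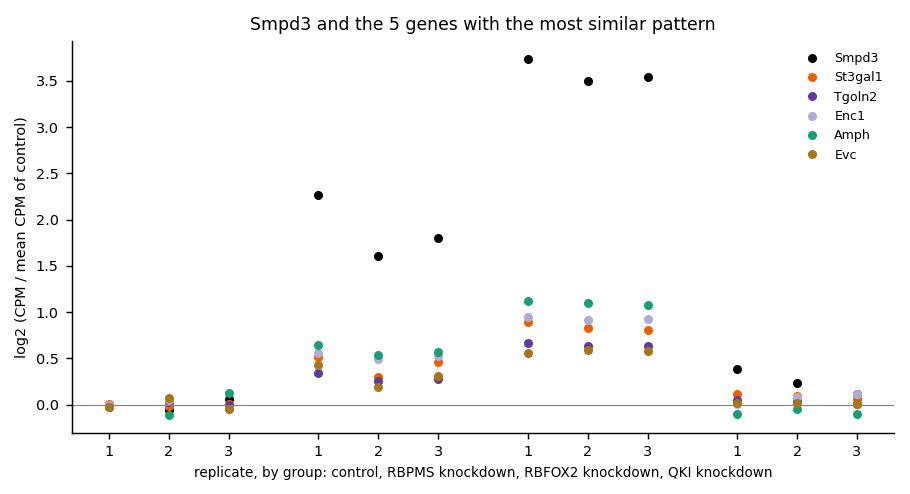
Log2 of the CPM of Smpd3 and the 5 genes most like it in each library, divided by the gene's control mean, with replicates 1 to 3 of each group side by side. All 6 genes are highest in RBFOX2 knockdown, intermediate in RBPMS knockdown and near 0 in QKI knockdown, and Smpd3 has the widest range.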

How the data were processed

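RNA from 12 libraries was analysed, grouped by the sample titles into control, RBPMS, RBFOX2 and QKI knockdown (n = 3 each). The authors deposited raw counts per gene and a table of normalised signal. The study describes alignment to mRatBN7.2 with STAR and counting with featureCounts, and the signal was made by a noise filter and quantile normalisation. The submitters' processing notes list STAR 2.5.2a, edgeR 3.28.1 and DESeq2 1.30.0. How reads shared by several genes were handled is not given in the sources used here.

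Of the counts from 1 to 19, 68.1% were even, against 50.9% of large counts, for a reason not given in the sources used here, so precision at low counts is uncertain. The deposited counts entered edgeR 4.0.16 under R 4.3.3 (filterByExpr, TMM, glmQLFit and glmQLFTest, two-sided) in 1 fit over all libraries with a coefficient per group. Benjamini-Hochberg adjustment was made over 18438 genes. The study's call rule was adjusted p under 0.05 together with a log2 fold change beyond 1 in either direction. The deposited signal served only as an alternative, on log2(value + 1) with limma 3.58.1. DESeq2 1.42.0, other scalings, no filter, halved counts and leaving out libraries were also tried. The common dispersion was 0.00241. The fit was tested on simulated data for QKI knockdown against control, with changes of at least 1 on the log2 scale put into 200 genes. It recovered 100% of these and called 0.0446% of the unchanged genes. Smaller changes were not simulated, so this recovery says nothing on them.

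The members and lists were chosen with earlier results of these data known. Named genes are the 10 members, 5 close relatives, up to 8 genes of the pathway list with the largest changes past both limits in RBPMS or QKI knockdown and a mean of at least 1 CPM, the 5 genes most like Smpd3, and the siRNA targets. The study states at least 3 biological replicates, but the labels give only replicate numbers, so p-values measure the spread between these libraries, which may be technical. With 3 libraries against 3, an exact permutation test cannot go below 0.1. Replicates differed beyond sampling noise (chi-square per degree of freedom 4.64 to 57.8). Same-numbered libraries did not deviate together (18 pairs, r from -0.0545 to 0.0389).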

Additional observations from a re-analysis of the deposited data

Results flagged for a closer look

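Ugcg was picked for its opposite changes against control in RBPMS and QKI knockdown. The direct comparison of these knockdowns uses the same libraries, so its result largely follows from that choice and is no separate support. All 3 libraries of RBPMS knockdown lay above control (log2 fold change 1.67) and all 3 of QKI knockdown below it (log2 fold change -0.98). The difference between QKI and RBPMS knockdown was -2.66 (edgeR adjusted p = 2.56e-16).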

How the results depend on the processing

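Most values kept their direction and their side of the threshold under 8 alternative settings and with each library left out. Of the values recomputed in this way, 1144 were the same and 10 turned direction. For tested comparisons of a gene, the same meant the direction and the side of the threshold. For those described without a test, it meant a shift smaller than the SD within groups, and the threshold was not considered. S1pr1 in RBFOX2 knockdown against control (0.17), described without a test, also turned, to -0.0271, without control replicate 2. S1pr1 in QKI knockdown against control (-0.06) was 0.0296 with library totals only and 0.0708 in the table normalised by the authors, and -0.255 to 0.320 with a library left out. Smpd2 between RBFOX2 and QKI knockdown (0.03) was -5.57e-04 and -0.0979 in these 2 settings, and -0.0233 to 0.0573 with a library left out. Smpd1 between QKI and RBPMS knockdown (-0.08) was 0.0549 with library totals only, and lost its call in all 8 settings (adjusted p 0.0544 to 0.818). Between the same knockdowns, Smpd2 ranged from -0.0158 to 0.0702 and S1pr3 from -0.0411 to 0.168 with a library left out. With library totals only, 1 member in place of 2 passed both limits in RBFOX2 knockdown against control and in RBFOX2 against RBPMS knockdown. Leaving out a library gave 1 to 2 such members in RBFOX2 against RBPMS and in RBFOX2 against QKI knockdown. The cause was not tested, but scaling by totals alone moved the median of all genes by up to 0.130 on the log2 scale, in QKI against RBPMS knockdown.

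S1pr2 between QKI and RBPMS knockdown (0.10) passed the threshold in 5 settings, with values of 0.112 to 0.234. S1pr3 in QKI knockdown lost its call in the table normalised by the authors (-0.33, adjusted p = 0.0678). With the replicate block, Smpd1 between QKI and RBPMS knockdown was -0.0751 (adjusted p = 0.0544), the only call the block changed. The numbers did not pair the samples. S1pr1, S1pr4, S1pr5, Smpd5 and Asah2 are limited by their counts.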
